A study of Mus musculus with 9 samples.

Results

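The Id proteins (inhibitors of DNA binding) and the E proteins they bind were followed in mouse muscle cells and muscle as a set of 7 genes, Id1, Id2, Id3 and Id4 on the side of the inhibitors and Tcf3, Tcf4 and Tcf12 on the side of the E proteins. They were chosen by family membership and matched by symbol to the Ensembl identifiers of the files, which list 46078 genes for the cultured cells and 38293 for muscle, and all 7 were found in both. RNA was sequenced from 9 libraries, each described as a biological replicate of C57BL/6 origin. Control myoblasts (MB, 2 libraries) were primary muscle precursor cells kept in growth medium with serum and basic FGF and given PBS. Lactate-treated myoblasts (2 libraries) were the same kind of cells given 10 mM sodium-L-lactate in PBS, and myotubes (MT, 2 libraries) were myoblasts after 3 days in differentiation medium with little serum, also with PBS only. Gastrocnemius (GAS, 3 libraries) was whole calf muscle of untreated female mice aged 8 to 12 weeks. The labels do not say whether the cultures came from separate animals, so p-values measure the spread between these libraries only.

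Id proteins and E proteins belong to the helix-loop-helix family. E proteins are expressed widely and bind DNA at E boxes, the word CANNTG, as dimers with tissue-specific partners, which in muscle are MyoD, Myf5, myogenin and MRF4. Id proteins keep the dimerisation surface but lack the basic stretch that contacts DNA, so an E protein held by an Id protein cannot bind, and in cultured myoblasts Id proteins are known as brakes on differentiation that respond to bone morphogenetic protein (BMP) signalling and to serum. Tcf3 encodes the E2A products, Tcf4 encodes E2-2 and Tcf12 encodes HEB. They are not the T cell factors of Wnt signalling, whose genes Tcf7l1 and Tcf7l2 have carried the older names TCF3 and TCF4.

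Promoter windows of 3 members that fell in MT are printed here because Id and E proteins act through E boxes. The Id2 window holds CAGCTG, an E box word that E protein dimers with MyoD can bind. Each window runs from 250 bases before to 50 bases after the RefSeq start (GRCm38.p6), 5′ to 3′ on the strand of the gene, and capitals mark every E box (CANNTG, both strands, which is the same word read from either). The windows are chr12:25096043-25096342 on the minus strand for Id2, chr4:136143572-136143871 on the plus strand for Id3 and chr10:80433586-80433885 on the minus strand for Tcf3.
Id2: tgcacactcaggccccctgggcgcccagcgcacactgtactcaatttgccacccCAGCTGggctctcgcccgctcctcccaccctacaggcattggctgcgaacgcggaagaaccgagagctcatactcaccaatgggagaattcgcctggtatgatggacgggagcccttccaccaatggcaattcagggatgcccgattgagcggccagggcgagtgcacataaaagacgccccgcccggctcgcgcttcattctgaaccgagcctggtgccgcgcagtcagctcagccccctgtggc
Id3: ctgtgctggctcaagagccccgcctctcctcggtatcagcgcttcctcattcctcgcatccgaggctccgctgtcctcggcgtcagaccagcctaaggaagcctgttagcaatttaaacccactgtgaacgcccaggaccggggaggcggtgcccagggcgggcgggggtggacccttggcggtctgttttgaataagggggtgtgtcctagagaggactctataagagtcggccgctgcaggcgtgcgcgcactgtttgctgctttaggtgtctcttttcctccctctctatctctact
Tcf3: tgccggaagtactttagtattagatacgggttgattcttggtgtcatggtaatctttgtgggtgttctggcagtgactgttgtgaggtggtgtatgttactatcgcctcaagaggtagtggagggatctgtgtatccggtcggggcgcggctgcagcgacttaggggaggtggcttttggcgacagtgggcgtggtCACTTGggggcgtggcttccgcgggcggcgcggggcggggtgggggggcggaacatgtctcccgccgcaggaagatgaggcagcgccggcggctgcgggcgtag

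The Id2 window held 1 E box, CAGCTG, which began at position -196 relative to the start, and the Tcf3 window held 1, CACTTG, at position -54. The Id3 window held none. A window of Tcf12 that is not printed here also held CAGCTG, at position -240. Of 32851 RefSeq promoter windows of this length, 72.3% held at least 1 E box and 16.3% held CAGCTG, so windows with and without these words are both common. GGCGCC, a GC-rich word bound by the Smads that BMP activates, occurred once in the Id2 window and not in the Id3 or Tcf3 window, against 11.9% of all windows. The window of Id4, which is not printed here, also held it once. These matches describe letters in a short window and not binding. Printable windows were at hand for 5 of the 7 members.

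Total counts were 19307793 to 19941574 in GAS and 5198247 to 10839516 in the cultured cells, where 3 counts correspond to 0.277 to 0.577 CPM (counts-per-million, scaled to the depth of each library). These floors cover counting error only, while the intervals of log2 fold changes below also take in the spread between libraries. The libraries carried markers of their labels, though not every myoblast marker followed them. Pax7 had 171 to 205 counts in MB and 13 to 14 in MT. Mki67 overlapped, with 245 and 1029 counts in MB and 424 and 203 in MT. Myf5 had 225 and 263 counts in MB and 287 and 57 in MT. By CPM, which allows for depth, both MT libraries were below both MB libraries for Myf5. Its means were 29.6 ± 2.9 CPM in MB and 14.3 ± 10.0 CPM in MT (SD, n = 2). Neither Mki67 nor Myf5 passed the thresholds given below. Embryonic myosin Myh3 had 72 to 100 counts in MB and 19420 to 31158 in MT. The fast myosin Myh4 was at 0 in MB, at 1110 to 1715 counts in MT and at 1178048 to 1354419 counts in GAS. MT library 1 stood apart, with 28599 genes with a count against 15548 to 17965 in the other cultured libraries. It held 8918 genes seen in no other cultured library, which took 1.23% of its counts. Counts were present there for 6 of 6 endothelial markers, against 1 in MT library 2. The MB and lactate-treated libraries carried 1 to 4 of the 6, the most in lactate-treated library 1. Pecam1 had 2 counts in MT library 1, as in each MB library, while the others had 24 to 73 in MT library 1. A further difference concerned CT010467.1, a feature annotated as ribosomal RNA, with 9.20% of counts in MB library 1, 13.8% in lactate-treated library 1 and 0.575% or less in each other cultured library. Results that rest on MT library 1 are given with and without it.

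MT were compared with MB to ask how the inhibitors and their targets change as precursor cells fuse and differentiate. The 3 Id genes with enough counts for a test, Id1, Id2 and Id3, were all lower in MT. Among E protein genes Tcf3 was lower, Tcf4 was higher and Tcf12 was not called. Genes were called at an adjusted p under 0.05 and an absolute log2 fold change over 0.5, with edgeR's quasi-likelihood test over 12921 genes and Benjamini-Hochberg adjustment. Of the 6 members tested, 5 were called, against 17.9% of all genes tested (2312). In the lower direction 4 members were called, against 6.86% of genes, and in the higher direction 1, against 11.0%. The median log2 fold change was -2.50 over the 6 members and 0.07 over all genes. Groups did not overlap for 5 of the 6, against 62.1% of all genes, so the lack of overlap alone says little with 2 libraries a group. Without MT library 1, a fit that takes the lone MT library to vary like the MB libraries called 2 members, Tcf3 and Tcf4, against 9.40% of genes.

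**Figure D1:**
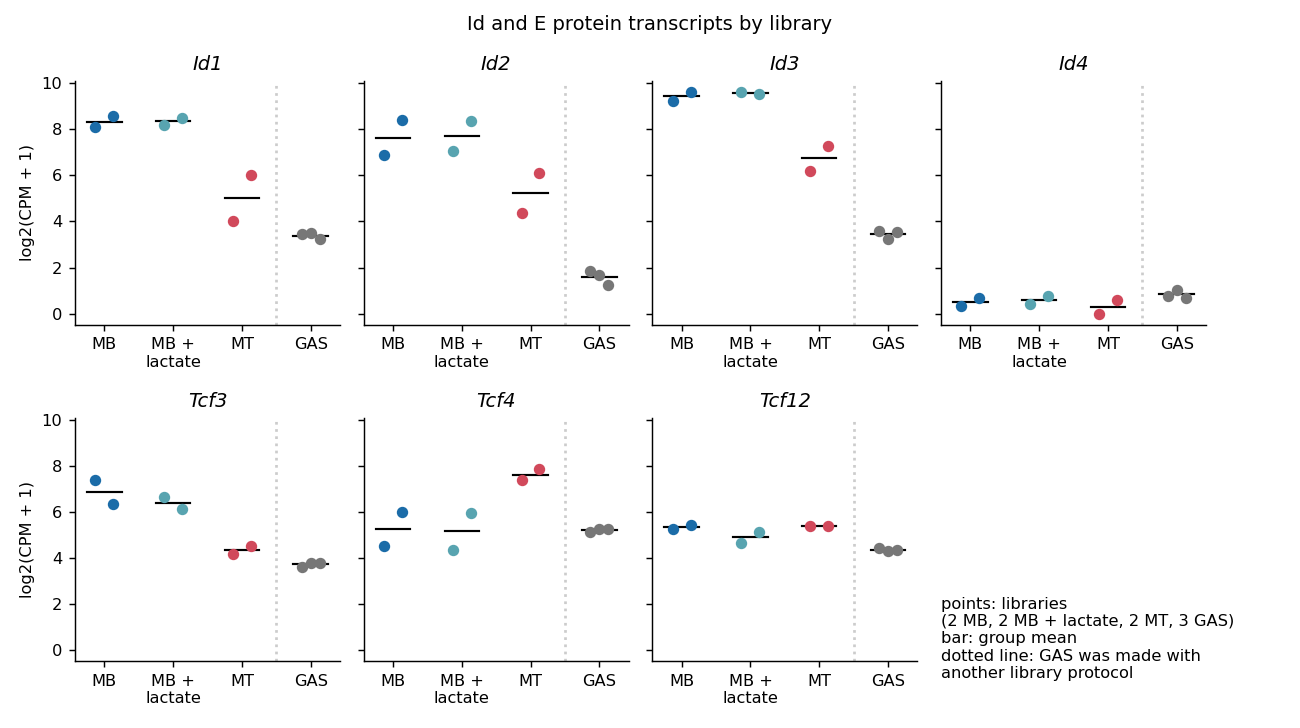
Level of each of the 7 genes by library, as log2(CPM + 1) on a shared vertical axis; points are libraries and short bars are group means. Id1, Id2, Id3 and Tcf3 sit lower in both MT libraries than in any MB library, Tcf4 sits higher and Tcf12 overlaps, while GAS, made with another library protocol, is drawn beyond the dotted line.

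Id1 lies on chromosome 2 (mm10, 152736251 to 152737410, plus strand) and encodes an inhibitor that is a classic early target of BMP signalling. It stood at 272 and 375 CPM in the MB libraries and at 15.3 and 64.0 CPM in the MT libraries. Both MT libraries were below both MB libraries, and MT library 1 was the lower one. The log2 fold change was -3.07 ± 0.63 (SE, n = 2 per group, edgeR adjusted p = 0.00832). With 1 library left out in turn it ran from -4.49 (without MT library 2) to -2.39 (without MT library 1), where an edgeR adjusted p of 0.0618 ended the call.

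Id2 lies on chromosome 12 (25093799 to 25097140, minus strand) and its product binds E proteins and, in some cells, the retinoblastoma protein. Its 2 MB libraries differed from each other, at 116 and 337 CPM, and the MT libraries stood at 19.4 and 67.9 CPM. The groups did not overlap, although the step from the lower MB library to the higher MT library was smaller than that between the MB libraries. The log2 fold change was -2.38 ± 0.64 (SE, edgeR adjusted p = 0.0282) and ran from -3.60 without MT library 2 to -1.59 without MB library 2 when 1 library was left out. The call was lost without MT library 1, at -1.76 (adjusted p = 0.200).

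Id3 lies on chromosome 4 (136143497 to 136145755, plus strand), encodes an inhibitor often expressed together with Id1, and was the most abundant member in MB both by CPM and per length. It stood at 604 and 771 CPM in MB and at 72.4 and 153 CPM in MT. Its replicates were closer to each other than those of Id1 or Id2. The log2 fold change was -2.63 ± 0.53 (SE, edgeR adjusted p = 0.00777), and it ran from -3.34 without MT library 2 to -2.23 without MT library 1, where the call was lost (adjusted p = 0.125). For all 3 Id genes MT library 1 was the lower of the MT libraries. The call of each rested on it, while each value stayed below 0 without it.

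Id4 lies on chromosome 13 (48261228 to 48266026, plus strand) and encodes the inhibitor best known from neural precursors. It had 2 and 5 counts in MB, 2 and 4 in lactate-treated MB, and 0 and 4 in MT, too few for a test. A count of 0 in MT library 1 allows a level of up to 0.277 CPM. Its exons overlap those of 2 genes on the opposite strand, A330033J07Rik by 82 bases and Gm49291 by 171 bases, and since the handling of strand is not stated, its few counts cannot be assigned with certainty. None of the other 6 members had an exon in common with another gene, and none matched another gene's transcript at 95% identity or more over 75 bases or more.

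Tcf3 lies on chromosome 10 (80409514 to 80433647, minus strand) and encodes the E2A proteins, which pair with MyoD at E boxes. It was the one E protein gene that fell in MT. Its level was 167 and 79.5 CPM in MB and 17.3 and 21.9 CPM in MT, with a log2 fold change of -2.69 ± 0.52 (SE, edgeR adjusted p = 0.00653). MB library 1 was the higher one here, while for Id2 it was the lower one, and the MT libraries were close to each other. The call was kept when any 1 library was left out, with values from -3.25 to -2.07 and the highest adjusted p at 0.0304.

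Tcf4 lies on chromosome 18 (69343356 to 69689079, plus strand), the longest locus of the set with 62 annotated transcripts, and encodes E2-2. It rose in MT. The MB libraries stood at 21.9 and 62.2 CPM and the MT libraries at 166 and 232 CPM. The lower MT library was well above the higher MB library. The log2 fold change was 2.27 ± 0.53 (SE, edgeR adjusted p = 0.0145). It ran from 3.02 without MB library 2 to 1.63 without MB library 1, where the call was lost (adjusted p = 0.0583), and was 2.44 without MT library 1 (adjusted p = 0.0109).

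Tcf12 lies on chromosome 9 (71842688 to 72111871, minus strand) and encodes HEB, an E protein also studied as a MyoD partner. Its level was 37.9 and 42.3 CPM in MB and 40.4 and 41.0 CPM in MT, so the MT values lay between the MB values. The log2 fold change was 0.03 ± 0.44 (SE, edgeR adjusted p = 0.974), with a 95% interval from -0.95 to 1.00 that leaves room for a change of about a doubling either way. The 3 E protein genes thus had a value below 0, a value above 0 and a value near 0 in the same libraries.

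**Figure D2:**
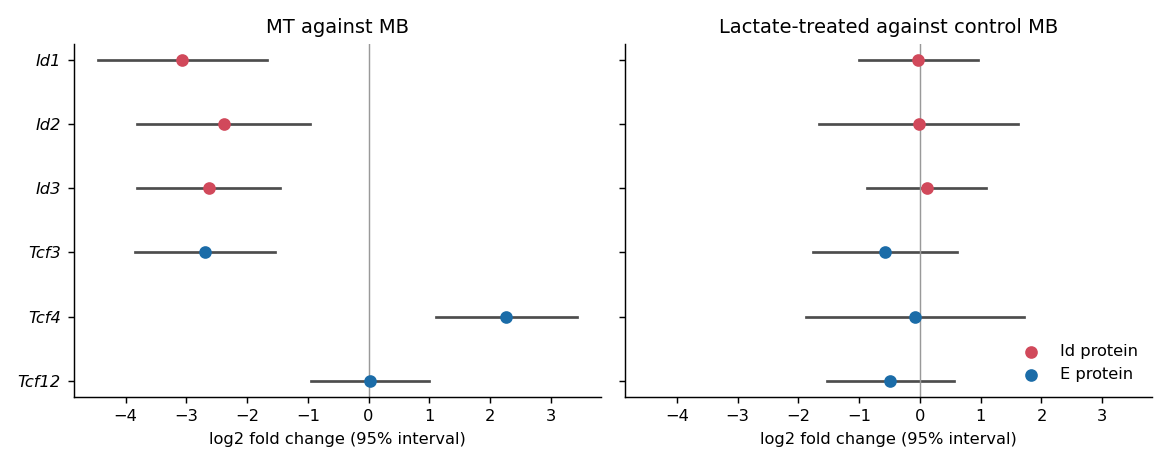
Log2 fold change of the 6 members tested, with 95% intervals, for MT against MB (left) and lactate-treated against control MB (right). Left, 4 members lie below 0 and Tcf4 above it with intervals that leave 0 out; right, every interval includes 0.

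Levels of different genes were compared per length, as CPM per kilobase of summed exon (RPKM). In MB the order was Id3 (384 ± 66 RPKM, SD, n = 2), Id1 (279 ± 63), Id2 (92.9 ± 64.0), Tcf3 (30.5 ± 15.3), Tcf12 (2.58 ± 0.20), Tcf4 (1.54 ± 1.04) and Id4 (0.110 ± 0.066). No pair of neighbours in that order overlapped between libraries. In MT the order was Id3 (62.8 ± 31.7), Id1 (34.2 ± 29.7), Id2 (17.9 ± 14.1), Tcf4 (7.27 ± 1.73), Tcf3 (4.86 ± 0.79), Tcf12 (2.62 ± 0.02) and Id4 (0.0661 ± 0.0935). Id3, Id1, Id2 and Tcf4 stood in this order within each MT library, although the values of the first 3 each overlapped with those of the next gene across libraries. By the longest transcript the place of Tcf4 differed: it stood above Id1 and Id2 in MT library 1 (19.3 beside 13.2 and 9.87 RPKM) and below both in MT library 2 (27.1 beside 55.1 and 34.5 RPKM). With lactate the order was that of MB, with Tcf12 and Tcf4 overlapping. Tcf4, sixth in MB, stood above Tcf3 and Tcf12 in both MT libraries.

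**Figure D3:**
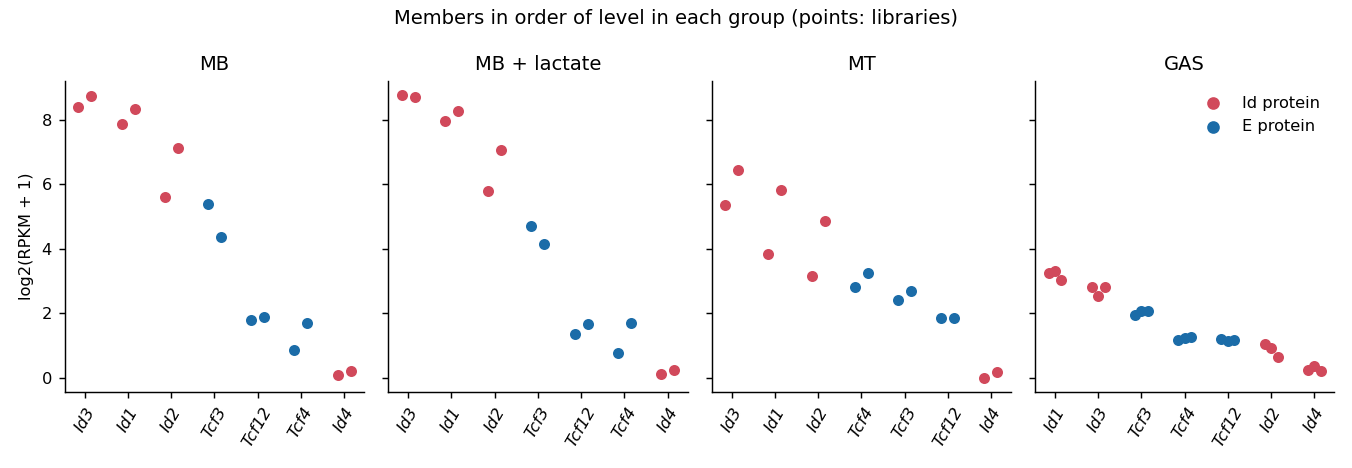
Members in order of mean level in each group, as log2(RPKM + 1), with a point for each library; Id genes are red and E protein genes blue. The 3 leading Id genes stand above the E protein genes in MB, the distance is smaller in MT, and in GAS Id2 falls below all 3 E protein genes.

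The balance of the 2 families was described by the summed RPKM of the 3 E protein genes divided by that of the 4 Id genes. The ratio was 0.0719 and 0.0277 in MB and 0.210 and 0.0983 in MT, so the groups did not overlap and per length Id transcript exceeded E protein transcript in every cultured library. It is a ratio of transcripts, says nothing of protein, and was given no test because the members were chosen together. Its size depends on the length used: with the longest transcript of each gene in place of summed exons the mean was 0.0612 in MB and 0.296 in MT, and without any length correction 0.176 and 1.56.

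The make-up of the E protein transcript also differed between the groups. Tcf3 made up 92.7% and 79.8% of E protein RPKM in MB and 33.2% and 32.7% in MT. Tcf4 made up 1.80% and 9.20% in MB and 46.7% and 51.3% in MT. The MT libraries were within a few points of each other for both genes, although they differed in the Id genes. By the longest transcript the Tcf4 share was 3.93% and 17.7% in MB and 61.1% and 66.1% in MT. Among Id transcripts Id3 made up the largest share in every cultured library, from 48.3% to 65.7%.

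**Figure D4:**
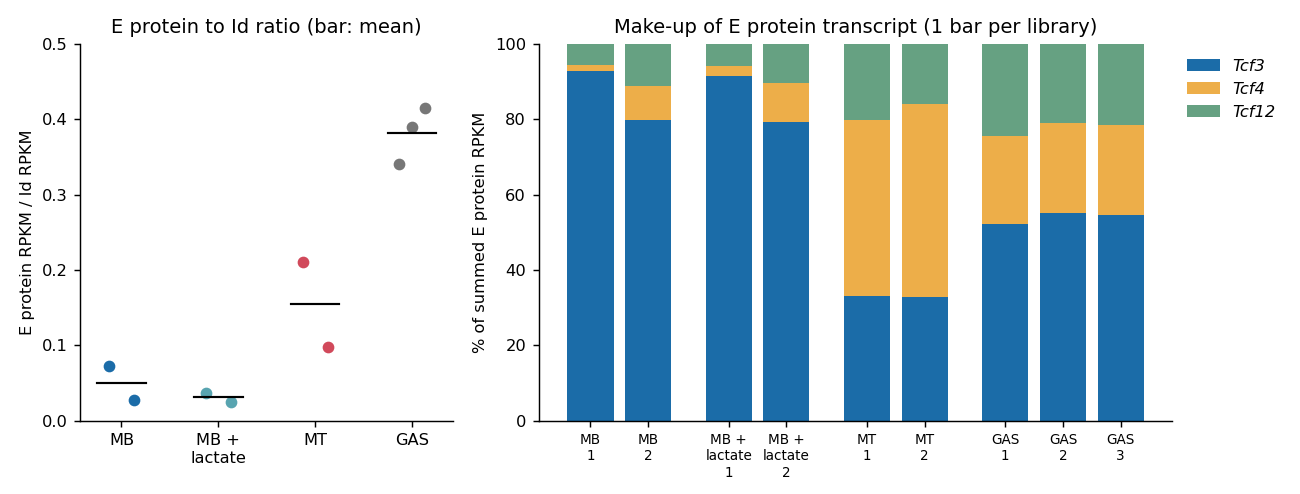
Left, summed RPKM of Tcf3, Tcf4 and Tcf12 divided by that of Id1 to Id4, a point for each library and a bar for each group mean. Right, share of each gene in the summed E protein RPKM, a bar for each library; Tcf3 leads in MB with 79.8% or more and Tcf4 leads in MT with 46.7% or more.

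The partners and targets of these proteins gave the setting. Of the 4 muscle factors of the basic helix-loop-helix (bHLH) class, which pair with E proteins, 2 rose and none was called as lower, against 11.0% of all genes called as higher and 6.86% as lower, with a median log2 fold change of 1.40. Myogenin (Myog), the factor of terminal differentiation, rose from 61.1 ± 33.9 to 882 ± 202 CPM (SD, n = 2), a log2 fold change of 3.81 ± 0.62 (SE, edgeR adjusted p = 0.00276). Myf6, which encodes MRF4, had 0 counts in both MB libraries and 110 and 544 in MT. Its MT mean of 27.25 ± 18.75 CPM (SD, n = 2) was at least 70.6-fold higher, against the floor of 3 counts in an MB library. This bound holds for the mean and not for each MT library. Myf6 entered the test through its MT counts alone and had to differ. Myod1, which encodes MyoD, stood at 944 ± 339 CPM in MB and 259 ± 170 CPM in MT without overlap and just missed the threshold (log2 fold change -1.93 ± 0.61, edgeR adjusted p = 0.0528). It was called as lower without MT library 2 (-2.89, adjusted p = 0.0181) and without MB library 2 (-2.36, adjusted p = 0.00357). Myf5 (29.6 ± 2.9 and 14.3 ± 10.0 CPM, adjusted p = 0.280) was not called.

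Of 10 muscle genes known to be driven through E boxes, 7 rose and none was called as lower, against 11.0% of all genes called as higher, with a median of 3.15. Ckm (3 to 4 counts in MB) and Mef2c (8 to 11) entered the test through their MT counts and had to differ, so the count is a description. Mymx, with 9 and 29 counts in MB, also needed its MT counts to enter. Mef2c, a partner of the muscle bHLH factors, went from 1.16 ± 0.27 to 712 ± 263 CPM, the fusion gene Mymk (myomaker) had a log2 fold change of 5.34 ± 0.78 (SE, edgeR adjusted p = 0.00145), and the cell cycle inhibitor Cdkn1a had one of 2.04 ± 0.57 (adjusted p = 0.0320). The others called were Ckm, Chrng, Mymx and Myog, the last of which is also among the muscle bHLH factors. Those other than Cdkn1a were called whichever library was left out, while the call of Cdkn1a was lost without MT library 1, MT library 2 or MB library 2 (log2 fold changes of 2.15, 1.76 and 1.62, adjusted p = 0.0860, 0.0798 and 0.168).

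Other repressors of the bHLH class were followed as a separate list. Of 10 in it, 7 were tested, 3 rose and none was called as lower, against 11.0% of all genes called as higher, with a median of 2.01. Bhlhe40 and Bhlhe41, clock-linked repressors that bind E boxes themselves, rose from 8.88 ± 1.14 to 248 ± 33 CPM and from 21.8 ± 18.9 to 184 ± 81 CPM (log2 fold changes of 4.80 and 3.15, edgeR adjusted p = 0.000227 and 0.00927). Heyl, an effector of Notch, had 0 and 6 counts in MB and 304 and 447 in MT (adjusted p = 0.00150), so it entered the test through its MT counts. Twist2, which can hold E proteins in mesenchymal cells, stood at 4.58 and 17.5 CPM in MB and 0.893 and 3.43 in MT and was not called (-2.46 ± 0.91, adjusted p = 0.0865), but it was called as lower without MT library 2 (-3.75, adjusted p = 0.00908) or MB library 2 (-3.21, adjusted p = 0.000939). Bhlhe40, Bhlhe41 and Heyl were called whichever library was left out.

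Of 6 coregulators that bind E proteins, 3 rose and none was called as lower, against 11.0% of all genes called as higher, with a median of 1.26. Cbfa2t3 and Runx1t1 were so low in MB that they entered the test through their MT counts and had to differ, so the count is a description. Cbfa2t3 (ETO2), a corepressor of the ETO family, had 0 counts in both MB libraries and 133 and 135 in MT. Its MT mean was at least 35.1-fold higher. Its relative Runx1t1 (ETO) rose from 0.969 ± 0.504 to 7.84 ± 1.50 CPM (log2 fold change 3.01, edgeR adjusted p = 0.0285). The third relative, Cbfa2t2 (MTGR1), stood at 118 ± 20 CPM in MT and was not called (0.16 ± 0.43). The acetyltransferase Kat2b (PCAF) was called as higher (2.37 ± 0.69, adjusted p = 0.0387). Its call was lost without MT library 1 (1.71, adjusted p = 0.353), and that of Runx1t1 without MT library 2, MB library 1 or MB library 2 (2.71, 2.51 and 3.49, adjusted p = 0.0660, 0.232 and 0.0708).

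The BMP pathway, which drives Id genes in many cells, was followed through 29 genes, of which 22 were tested, 4 rose and none was called as lower, a share of 18.2% beside the 17.9% of all genes. Their median log2 fold change was 0.46. The 4 that rose were 3 ligands and an antagonist, each so low in MB that it entered the test through its MT counts and had to differ, and the other 4 ligands (Bmp2, Bmp5, Bmp6 and Bmp7, with 0 to 27 counts in MT) were not tested. Bmp4 had 5 and 5 counts in MB and 280 and 383 in MT (log2 fold change 5.78 ± 0.72). Gdf5 and Gdf6 had 0 counts in both MB libraries and 29 to 70 in the MT libraries. Their MT means were at least 8.92-fold and 12.5-fold higher. The secreted antagonist Chrd (chordin) had 3 and 2 counts in MB and 197 and 301 in MT. None of the 7 receptors tested was called, and the signal transducers Smad1, Smad5 and Smad4 had values of -0.25 ± 0.61, -0.38 ± 0.50 and -0.34 ± 0.54. The inhibitory Smads Smad6 and Smad7, themselves BMP targets, stood at -1.001 ± 0.83 and -0.30 ± 0.56, neither called. Bmp4 and Chrd were called whichever library was left out, and the calls of Gdf5 and Gdf6 were lost without MB library 1 and again without MB library 2. The genes called depended on the library left out. Without MT library 2, which leaves MT library 1 alone, the receptors Acvrl1 and Bmpr1b had log2 fold changes of 4.95 and 3.09. The ligand Bmp5 entered that fit too, with 0 counts in MB and 0 to 27 in MT. Fits without MT library 1, MT library 2 or MB library 1 also called an antagonist as lower. Without MB library 2 the receptors Acvr2a, Bmpr1a and Bmpr2 were among those called as higher.

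**Figure D5:**
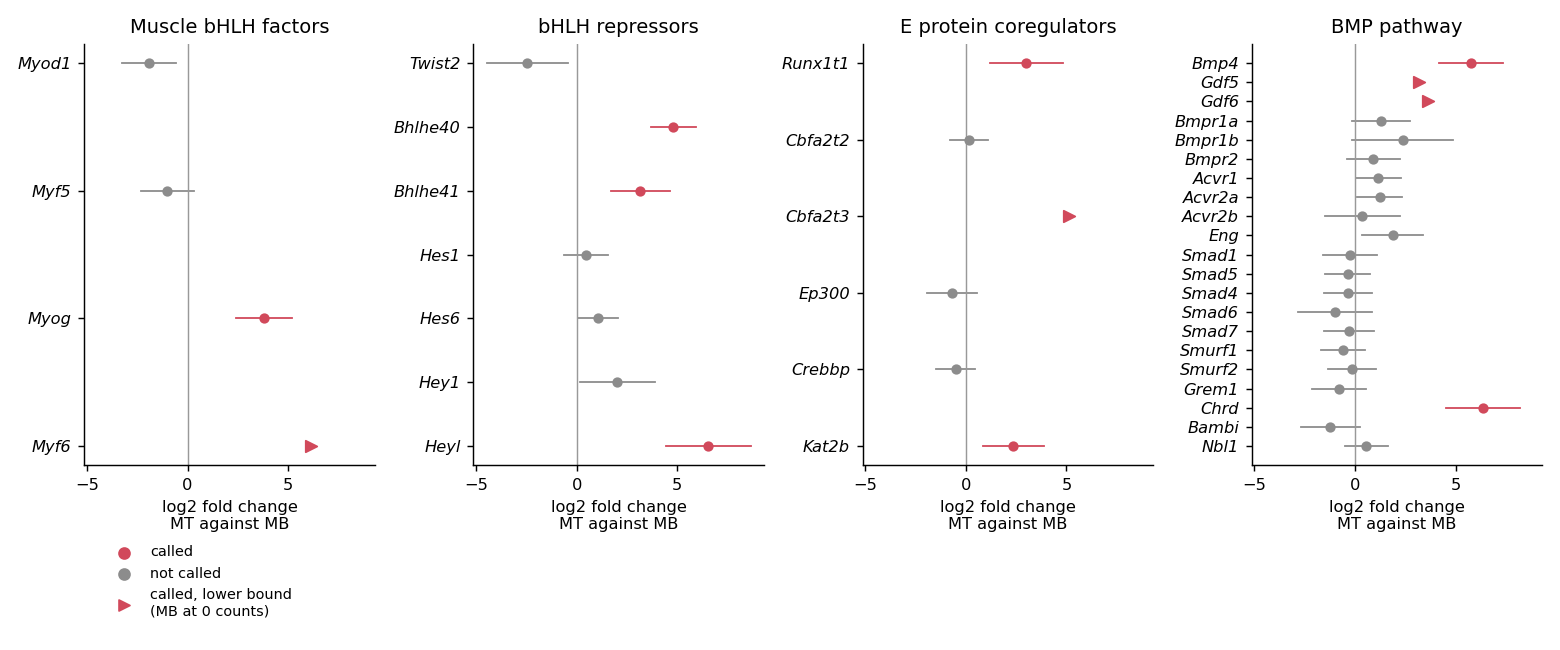
Log2 fold change of MT against MB with 95% intervals for tested genes of 4 lists (1 tested BMP pathway gene is not drawn), red where called and grey where not. Triangles mark Myf6, Cbfa2t3, Gdf5 and Gdf6, which were at 0 counts in both MB libraries. They are drawn at a lower bound taken from the MT mean. Every called gene lies above 0.

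Markers of other cell types moved between the same libraries. Fibroblast markers summed to 17.5 and 9.40 CPM in MB and to 13573 and 1896 CPM in MT. This was chiefly Col1a1, with 8 and 4 counts in MB and 176154 and 13854 in MT. Of 4 tested, 2 were called as higher, against 11.0% of all genes. These were Col1a1 and Dcn (0 and 2 counts in MB), which entered the test through their MT counts and had to differ. Endothelial markers (6 genes) summed to 0.241 to 0.490 CPM in MB and to 19.7 and 0.254 CPM in MT, and macrophage markers (5) to 1.72 to 2.17 CPM in MB and 30.3 and 3.82 CPM in MT. Schwann cell markers (4) summed to 0.241 CPM or less in MB and to 4.91 and 0.890 CPM in MT. Lymphoid markers (5), for which E proteins are best known, summed to 0.123 CPM or less in MB and to 6.63 and 1.65 CPM in MT. Mural markers (5) summed to 282 to 457 CPM in MB and 1198 to 3434 CPM in MT, nearly all of it Acta2, a gene that young muscle cells also express. The part of these cells in the values of the members was not tested. In bulk RNA, fewer cells of a type and less RNA per cell cannot be told apart.

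Lactate-treated MB were compared with control MB to ask whether lactate moves myoblasts towards differentiation. None of the 6 members tested was called, and none had a p under 0.05. Over all 11804 genes edgeR's quasi-likelihood test called 0 (0.0%, lowest adjusted p 1.00), with 5 genes at an unadjusted p under 0.05 (0.0424%), and DESeq2 also called 0, with 3 genes at that level. Groups did not overlap for 1 member, Tcf12, against 11.1% of genes. These counts, and the intervals given below with each member, come from fits that take no pairs. Same-numbered libraries of the 2 groups deviated together (r = 0.70), though the labels do not say what a number shares. With a replicate block in edgeR, 0 genes were called and 166 had an unadjusted p under 0.05. The intervals of the members tested were then narrower and still included 0, from -0.52 to 0.57 for Id2 and from -0.77 to 0.51 for Tcf4.

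Id1 stood at 291 and 358 CPM with lactate beside 272 and 375 CPM in controls, and its log2 fold change was -0.02 with a 95% interval from -1.01 to 0.96. Id3 stood at 778 and 741 CPM beside 604 and 771 CPM, a log2 fold change of 0.11 with an interval from -0.88 to 1.09. The treated values of Id1 lay between the control values, and those of Id3 overlapped them. Id2 stood at 133 and 322 CPM beside 116 and 337 CPM (-0.02, from -1.65 to 1.62). Id2 thus differed more between libraries of a group than between the groups, and its interval is the widest among the Id genes.

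Among the E protein genes, Tcf4 stood at 19.5 and 60.8 CPM with lactate beside 21.9 and 62.2 CPM in controls (log2 fold change -0.09, 95% interval from -1.88 to 1.71). Id2 and Tcf4 were both lower in library 1 than in library 2 of each MB group, and Tcf3 was higher in library 1 of each, at 101 and 68.1 CPM with lactate beside 167 and 79.5 CPM (-0.58, from -1.77 to 0.60). The libraries numbered 1 are those with 9.20% and 13.8% of counts on the ribosomal RNA feature, whose part in these differences was not tested. Tcf12 stood at 24.4 and 34.0 CPM beside 37.9 and 42.3 CPM (-0.49 ± 0.43, SE, from -1.52 to 0.55), with an unadjusted p of 0.299 and an edgeR adjusted p of 1.00. The E protein to Id ratio was 0.0368 and 0.0249 with lactate and overlapped that of the controls.

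The wider lists were at the same levels of change. Of 19 BMP pathway genes, 7 bHLH repressors, 8 E box targets, 4 coregulators and 3 muscle bHLH factors tested, none was called, and the median log2 fold changes were -0.06, -0.26, 0.00, -0.21 and 0.11 beside 0.00 over all genes. Myog stood at 85.4 and 41.4 CPM with lactate beside 85.0 and 37.1 CPM in controls, and Myod1 at 795 and 1405 CPM beside 705 and 1184 CPM.

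In GAS the members were described by level alone, because its poly(A) libraries and the Smart-seq2 libraries of the cultured cells differ in protocol and the groups cannot be told apart from it. Per length, Id1 led with 8.17 ± 0.82 RPKM (SD, n = 3), followed by Id3 (5.61 ± 0.75), Tcf3 (3.05 ± 0.20), Tcf4 (1.33 ± 0.07), Tcf12 (1.26 ± 0.06), Id2 (0.843 ± 0.268) and Id4 (0.208 ± 0.061). Tcf4 and Tcf12 overlapped between libraries, and the other neighbours in this order did not. By the longest transcript of each gene, Tcf4 came before Tcf3.

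The 3 GAS libraries were close to each other for most members. Id1 had 193, 202 and 162 counts, Id3 had 215, 168 and 207, and Id2 had 52, 43 and 26, the widest spread among the Id genes with over 25 counts. Tcf3 had 224, 253 and 246 counts, Tcf4 674, 737 and 728, and Tcf12 404, 371 and 373. Id4 had 14, 21 and 12 counts, above the floor of 3 in each GAS library. The E protein to Id ratio was 0.341, 0.390 and 0.415, and 2.75 to 3.31 by CPM, so that which family exceeds the other in GAS turns with the length correction. Tcf3 made up 52.3% to 55.2% of E protein RPKM, Tcf4 23.2% to 23.8% and Tcf12 21.1% to 24.5%. By the longest transcript Tcf3 made up 34.7% to 37.2% and Tcf4 35.9% to 37.3%. Whole muscle holds cells other than fibers. Endothelial markers summed to 146 to 163 CPM, mural markers to 247 to 271 CPM and fibroblast markers to 366 to 460 CPM in GAS, and their part in the levels of the members was not tested. Among the pathway genes in GAS, Myf6 led the muscle bHLH factors with 51.9 ± 6.3 RPKM beside 5.77 ± 1.01 for Myod1, and Kat2b stood at 22.1 ± 0.6 RPKM.

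Genes with a pattern like that of a member were found by the root-mean-square difference between log2 CPM profiles, each centred on its own mean, over the 6 cultured libraries. Candidates were protein-coding genes within 2 log2 units of the mean of the member. Nearest to Id1 were Cdc6 (0.236 log2 units) and Ezr (0.267), to Id2 were Ddx21 (0.280) and D10Wsu102e (0.288), and to Id3 were Ppa1 (0.132) and Ptma (0.132). Nearest to Tcf3 were Syne3 (0.146) and Foxm1 (0.168), to Tcf4 were Epha7 (0.0565) and Klhl24 (0.191), and to Tcf12 were Tead1 (0.0862) and Lrp11 (0.0958). The median difference over the candidates ran from 0.590 for Tcf12 to 1.55 for Id1. Among the members themselves Id1 and Id3 were the nearest pair (0.393), followed by Id2 and Id3 (0.574), Id1 and Id2 (0.589) and Id3 and Tcf3 (0.593), and Id1 and Tcf4 were the farthest (2.78). With 6 libraries that fall into 3 groups these distances mainly follow the differences between MB and MT, and they say nothing of shared function.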

How the data were processed

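RNA-seq libraries of MB, lactate-treated MB, MT and GAS were used. The authors trimmed reads with Trim Galore (0.6.6), aligned them to mm10 with HISAT2 (2.2.1) and counted them on genes with Subread (2.0.1), per the labels, and deposited raw counts per gene. Annotation release, strand and multiply aligned reads are not given in the sources used here. Symbols, coordinates and exon lengths came from GENCODE M21 (45229 of 46078 identifiers of the cultured cells and 36429 of 38293 of GAS matched). Counts were tested in edgeR 4.0.16 (filterByExpr, TMM, glmQLFit, glmQLFTest, Benjamini-Hochberg) with the 2 groups of each comparison. SE was derived from the F statistic. CPM used TMM factors over the 6 cultured libraries together and the GAS libraries apart. RPKM divides by summed exon length. The script was tested on simulated data. Alternatives were RLE factors, other filters, DESeq2 1.42.0, all 6 libraries in 1 fit, a replicate block, removal of CT010467.1 and leaving out each library. The members and lists were chosen with earlier results of these data known. Named were the members, list genes called or described, and the 2 genes nearest to each member. Values of 2 single genes of the lists are not reported here.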

Additional observations from a re-analysis of the deposited data

How the results depend on the processing

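The 5 members called in MT against MB were called alike with RLE size factors, without a filter on low counts, with at least 10 counts in every library, with DESeq2, with all 6 cultured libraries in 1 fit, with a replicate block and without CT010467.1. The count of genes called, 2312, moved to 1444 with at least 10 counts in every library and was 2271 with the replicate block, and it ran from 1232 to 4921 when 1 library was left out. The count of members ran from 2 to 5 when 1 library was left out. Without MT replicate 1 the calls of Id1, Id2 and Id3 were lost, and without MB replicate 1 that of Tcf4. MB and MT libraries with the same number did not deviate together (r = -0.13 over genes), while MB libraries with and without lactate did (r = 0.70). With 2 pairs and no label that says what a number shares, same-numbered libraries were not taken as pairs. Crossing them for MT and MB, chosen after seeing the data, left 2059 genes (1192 higher, 867 lower) and 4 members called, all but Id2. The replicate block ended the call of Cdkn1a (adjusted p = 0.0607) and of no other gene named as called in the muscle bHLH, E box, repressor, coregulator or BMP lists. For lactate, 0 to 2 genes were called when 1 library was left out, 0 in every other fit, and the replicate block gave 166 genes at an unadjusted p under 0.05 against 5. Values near 0 changed sign. In MT against MB, Tcf12 ran from -0.0982 to -0.0310 when 1 library was left out. For lactate, Id1 was 0.0246 with RLE factors and with DESeq2 and ran from -0.22 to 0.24 when 1 library was left out, and Id2 was 0.0159 with RLE factors and with DESeq2, 0.0265 with the replicate block and ran from -0.85 to 0.96, Tcf3 from -1.01 to 0.14 and Tcf4 from -1.18 to 0.87. The cause of these changes was not tested. The mean E protein to Id ratio by CPM was 0.176 in MB, 0.117 with lactate, 1.56 in MT and 3.06 in GAS, and by the longest transcript 0.296 in MT and 0.669 in GAS. Counts of Id4 were too low for a test in cultured cells.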
